A study of Mus musculus with 6 samples.

Results

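Expression of 48 genes that fold, translocate and clear proteins of the endoplasmic reticulum (ER), or that sense unfolded protein there, was compared between CpG-stimulated and unstimulated mouse B cells. The genes were chosen by symbol from the 23420 genes with values, and all 48 were found, 4 of them under an older symbol (Ero1l for Ero1a, Ero1lb for Ero1b, Selk for Selenok and Vimp for Selenos). They were described where the value was over -0.76 log2 CPM (counts scaled to a common library total), the value of 10 reads, in at least 3 samples. This left 47 of the 48 genes, among 11233 genes tested in all, and only Pdia5 did not pass. As a group the ER genes did not move in 1 direction: 18 rose (37.6% of all genes tested rose), 15 fell (36.7% of all genes fell) and 14 did not pass a false discovery rate (FDR) of 0.05 in limma. The most changed were Eif2ak3, which encodes the sensor PERK and was 5.96-fold lower after CpG, the oxidase gene Ero1lb, 4.36-fold lower, and Sdf2l1, a cofactor of the chaperone BiP, 2.56-fold higher.

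B cells were isolated with beads from spleens of WT BALB/c mice that were 7 to 11 weeks old, and were cultured for 4 hours at 10 M cells per sample. The 3 CpG-stimulated cultures received 10 μg/mL of CpG ODN 1826, a synthetic DNA that activates TLR9, and the 3 unstimulated cultures did not. Replicates 1 and 2 of each group were labeled female and replicate 3 male, and the methods give 3 mice in all, without naming the mouse of each culture, so p values measure the spread between these samples. Values were the deposited log2 CPM after quantile normalization, which sets the total of each sample, so that a change in total RNA per cell cannot be seen.

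In a secreting cell, proteins with a signal peptide enter the ER through the Sec61 channel, lose the signal peptide to signal peptidase and receive N-glycans. They are then folded by chaperones such as BiP, by the lectins calnexin and calreticulin and by disulfide isomerases, and proteins that fail to fold are returned to the cytosol and degraded (ER-associated degradation, ERAD). Unfolded protein activates the sensors IRE1, ATF6 and PERK, which raise chaperone and ERAD genes through the transcription factors XBP1, ATF6 and ATF4. In the B cell lineage this system is known for its growth as B cells become antibody-secreting plasma cells.

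Promoter sequences are shown first, because the ER stress response element (ERSE), a site bound by ATF6 with NF-Y, lies close to the start of several of the genes whose values follow. Promoters of 41 of the 48 genes were found in RefSeq (GRCm38.p6), each from 250 bases before to 50 bases after the gene's start, and were searched on both strands. The ERSE, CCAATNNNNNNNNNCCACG, was present in 10 of the 41 promoters (24.4%), against 39 of all 32851 promoters (0.119%) and 16 of the 8981 promoters of tested genes (0.178%). This element was first described in promoters of genes of this kind, so the share is a description of the list. Each match is given with 10 bases on either side, read on the strand of the gene, with the match in capitals.
Hspa5, chr2:34772015-34772053, + strand: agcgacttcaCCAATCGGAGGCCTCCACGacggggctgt
Hsp90b1, nearer match, chr10:86705523-86705561, - strand: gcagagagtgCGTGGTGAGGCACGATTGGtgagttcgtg
Hsp90b1, farther match, chr10:86705628-86705666, - strand: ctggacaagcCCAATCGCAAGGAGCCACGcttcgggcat
Calr, chr8:84847065-84847103, - strand: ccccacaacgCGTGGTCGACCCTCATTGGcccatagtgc
Canx, chr11:50325790-50325828, - strand: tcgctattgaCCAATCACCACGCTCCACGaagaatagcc
Pdia6, chr12:17266481-17266519, + strand: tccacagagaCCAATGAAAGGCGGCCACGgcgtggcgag
Dnajc3, chr14:118937817-118937855, + strand: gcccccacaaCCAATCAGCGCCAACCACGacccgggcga
Creld2, chr15:88819510-88819548, + strand: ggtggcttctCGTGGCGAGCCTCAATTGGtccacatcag
Ero1lb, chr13:12565672-12565710, + strand: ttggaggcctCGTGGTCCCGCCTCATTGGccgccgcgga
Syvn1, chr19:6046522-6046560, + strand: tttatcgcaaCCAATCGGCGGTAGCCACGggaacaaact
Derl3, chr10:75893232-75893270, + strand: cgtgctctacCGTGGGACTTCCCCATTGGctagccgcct
In 6 of these 11 matches the element was on the strand of the gene, beginning with CCAAT, and in the other 5, among them those of Calr, Creld2, Derl3 and Ero1lb, it was on the opposite strand and reads as CGTGG followed by ATTGG. The nearest match to a start began 44 bases before that of Syvn1, and the farthest began 212 bases before that of Hsp90b1. A related element, ERSE-II (ATTGGNCCACG), was found in 2 of the 41 promoters, those of Herpud1 and Dnajb11, against 12 of all promoters (0.0365%). The match of Dnajb11 lay after the start and that of Herpud1 before it.
Herpud1, chr8:94386367-94386397, + strand: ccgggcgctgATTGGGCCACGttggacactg
Dnajb11, chr16:22857842-22857872, + strand: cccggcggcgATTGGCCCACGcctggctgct
The core of the XBP1 site (TGACGTGG, in 0.676% of all promoters) and the cAMP response element core (TGACGTCA, in 1.79%) were in none of the 41 windows, and the core of the ATF4 site (TGATGNAA, in 3.97%) was in that of Herpud1. A match is a string of letters in this window and does not show that a factor was bound.

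The purity of the cells was checked with marker genes. All 8 markers of B cells were over the value of 10 reads. Of the 6 plasma cell markers, 5 were over it, and their summed level was 756 to 849 CPM in CpG-stimulated and 996 to 1358 CPM in unstimulated samples, with Tnfrsf17, the receptor BCMA, below 10 reads in both groups. Summed B cell markers were 9645 to 11592 CPM against 12656 to 13768 CPM. Both lists thus moved with the groups, and their part in the changes of ER genes was not tested. In bulk RNA, fewer cells of a type and less RNA per cell cannot be told apart. Markers of T cells were all near the level of a gene without reads, and erythroid markers summed to 4912 CPM in CpG replicate 2 and 3845 CPM in unstimulated replicate 2, but to at most 611 CPM in the other 4 samples. Without CpG replicate 2, the calls of Sel1l, Ppib, Sec61b and Sec61g changed, and without unstimulated replicate 2 no call of an ER gene did. Markers of plasmacytoid dendritic cells summed to 127 to 134 CPM after CpG and 252 to 261 CPM without, with the defining marker Siglech below 10 reads. Most of that sum was Tcf4, which B cells also express and which fell (log2FC -1.24), while Bst2 of the same list rose (log2FC 0.92). Myeloid markers summed to 10.0 to 15.6 CPM after CpG and 7.35 to 14.4 CPM without, with 4 of 6 over 10 reads in the mean of all samples, and of the list Adgre1 rose (0.83) and Csf1r (-1.61) and Cd14 (-1.73) fell. NK cell markers summed to 0.715 to 1.4 CPM after CpG, mostly from Klrb1c, and 0.206 to 0.312 CPM without. The part of these lists in the changes of ER genes was not tested either.

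The 18 ER genes that rose and the 15 that fell, of 47, were near the shares of all genes. The change is given as log2FC, the mean log2 CPM after CpG minus that without, with its standard error (SE) from limma. A log2FC over 1 was reached by 1 ER gene, Sdf2l1 (15.8% of all genes rose by as much), and a log2FC under -1 by 3, Eif2ak3, Ero1lb and Syvn1 (15.3% of all genes). The share with an absolute log2FC over 1 was 8.51% among ER genes and 31.4% among all genes, and the median absolute log2FC was 0.42 and 0.64 (limma, log2 CPM scale). The median signed log2FC was 0.06 for ER genes and 0.00 for all genes. In 21 ER genes every CpG-stimulated sample was above every unstimulated sample (39.1% of all genes), and in 16 every one was below (38.6% of all genes). Summed over the 48 genes, the level was 7080 ± 118 CPM after CpG and 7449 ± 224 CPM without (SD, n = 3), with all 3 CpG-stimulated sums below the unstimulated ones.

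**Figure D1:**
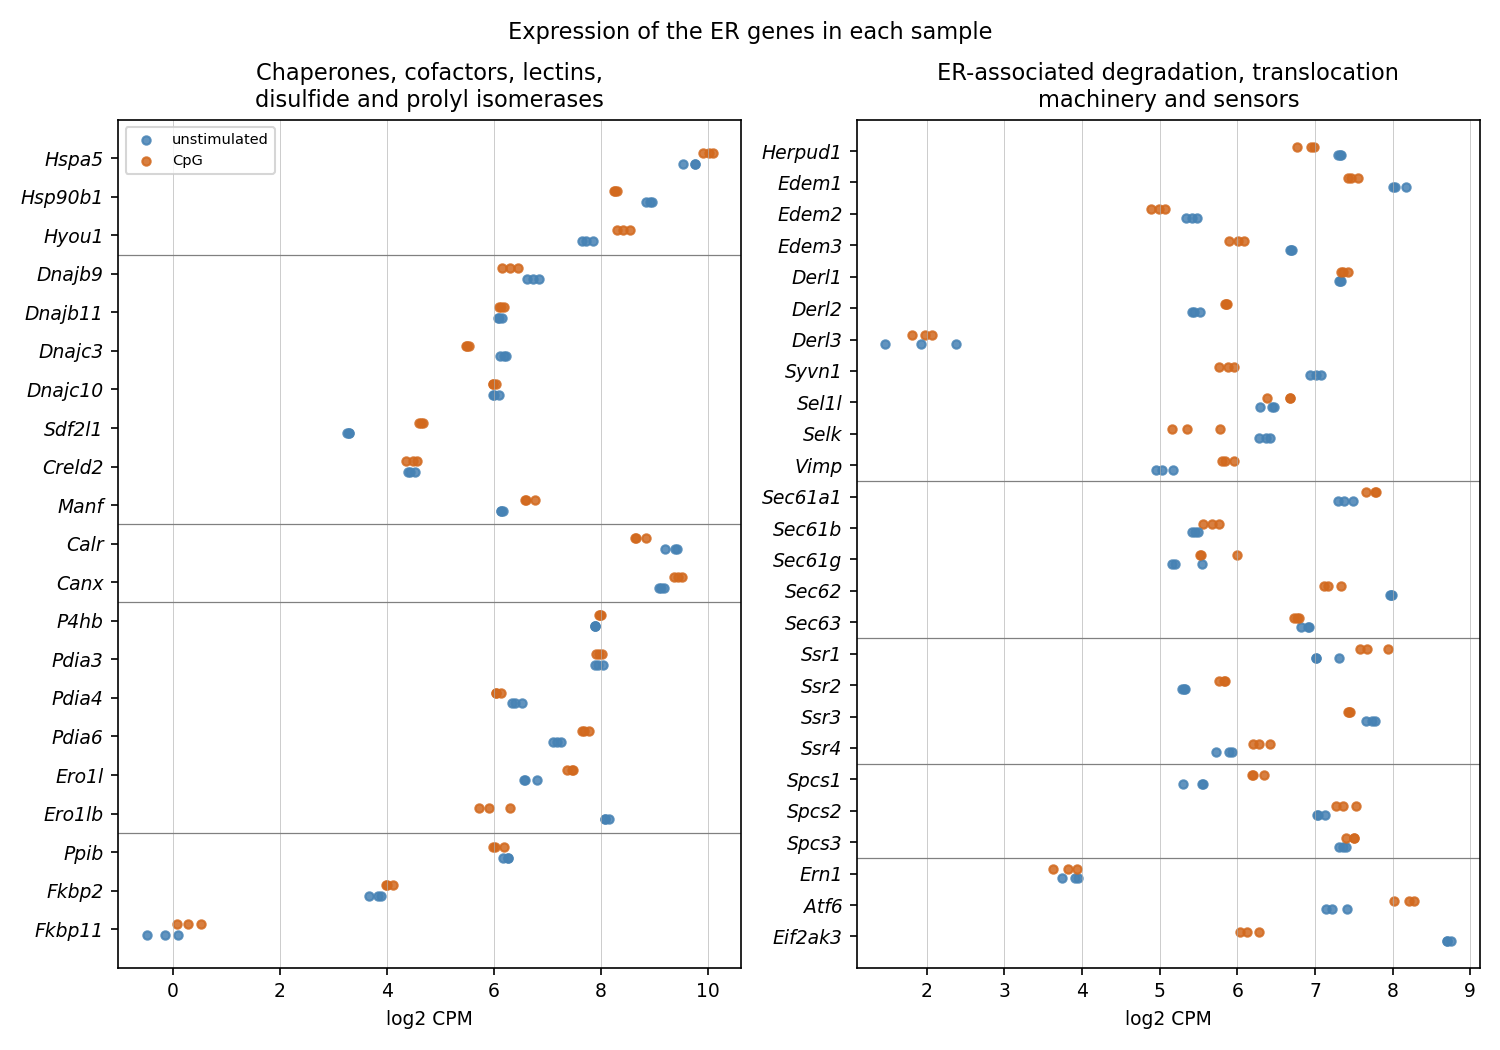
Expression of the 47 tested ER genes in each of the 6 samples, in log2 CPM, with 1 row per gene, orange points for CpG-stimulated and blue points for unstimulated samples, and lines between role groups. Eif2ak3, Ero1lb, Syvn1 and Sdf2l1 show wide gaps between the groups, while the points of Pdia3, Dnajc10 and Dnajb11 lie on one another.

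**Figure D2:**
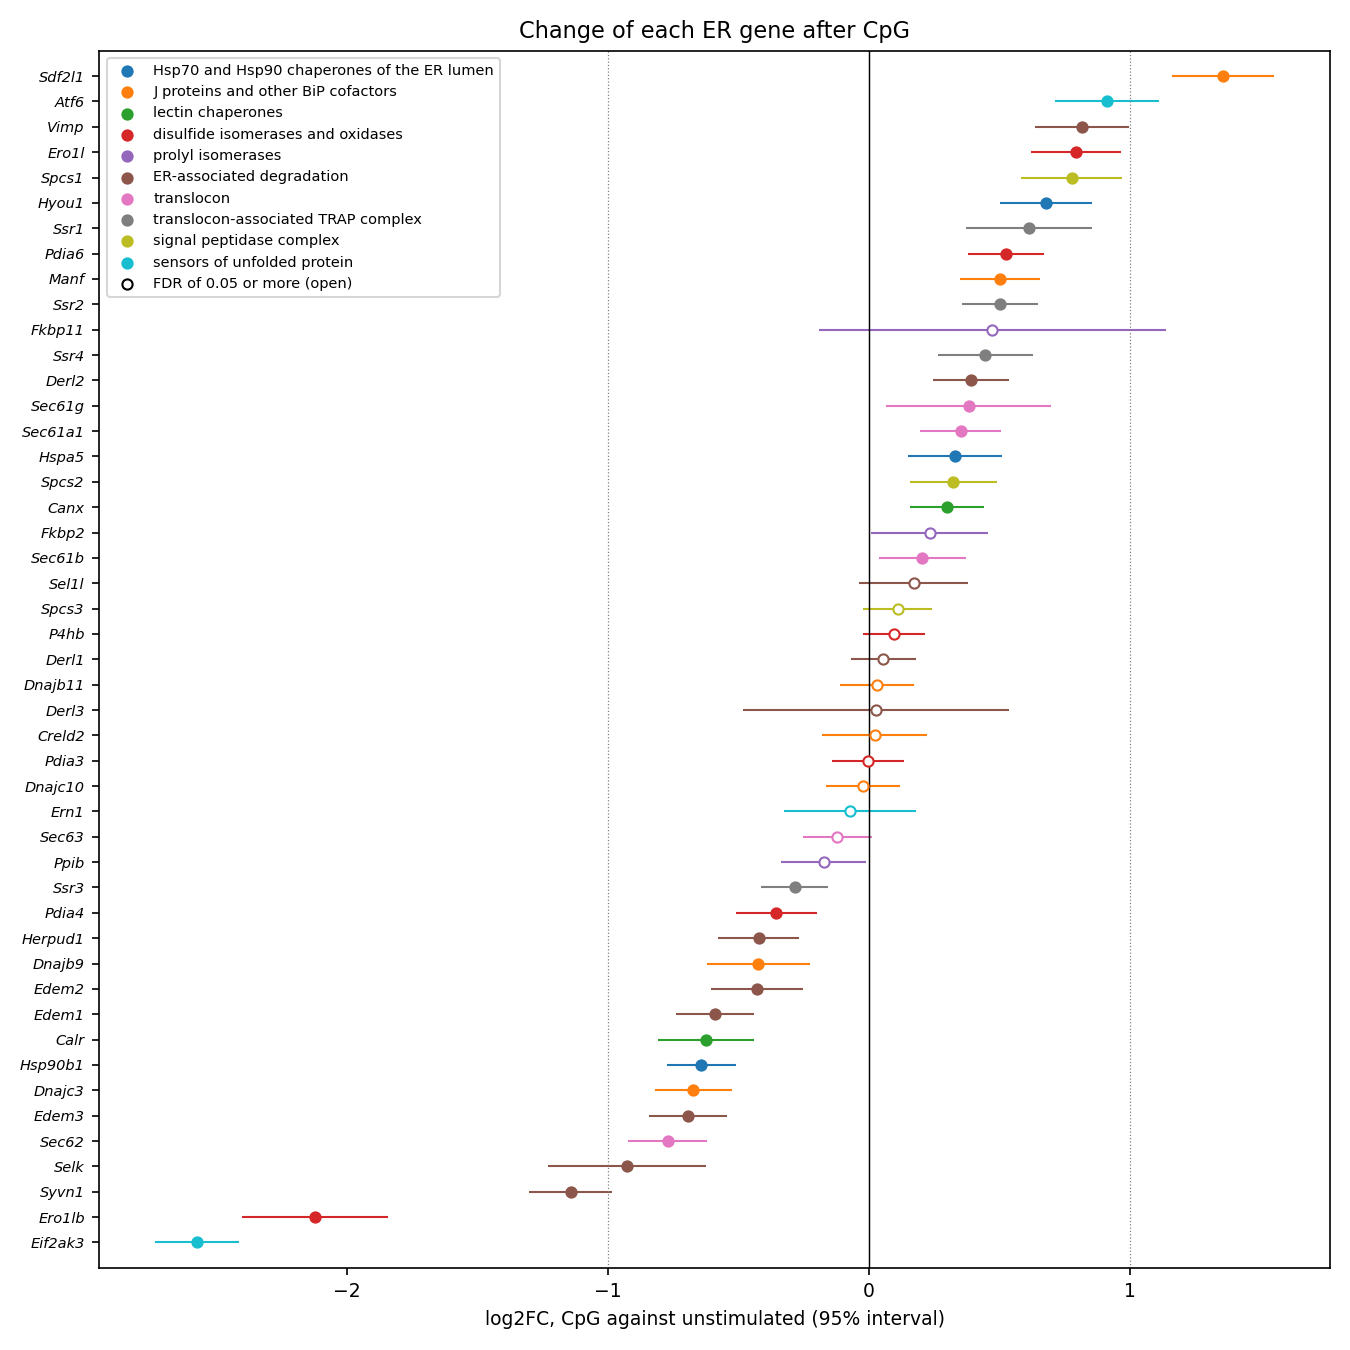
Log2FC of each of the 47 ER genes, CpG against unstimulated, with the 95% interval from limma, sorted by size and coloured by role, with open points for the 14 genes that did not pass an FDR of 0.05. Dotted lines mark a log2FC of -1 and 1, beyond which Sdf2l1 lies on the right and Syvn1, Ero1lb and Eif2ak3 on the left.

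Levels per kb of exon set the order among the genes. In unstimulated B cells the highest were Calr (7.81 log2 CPM per kb), which encodes calreticulin, Hspa5 (7.60), Canx (6.91) and Hsp90b1 (6.90), and in CpG-stimulated B cells Hspa5 came first at 7.93. The lowest of the tested ER genes without CpG were Fkbp11 (-1.62), Ern1 (0.84) and Derl3 (0.93). Ern1 encodes the sensor IRE1, and its mRNA was at 0.76 log2 CPM per kb after CpG. Pdia5, an isomerase of the disulfide group, was at -5.35, -4.98 and -3.54 log2 CPM in CpG-stimulated and -3.85, -4.98 and -5.12 in unstimulated samples, which is below the value of 3 reads (-2.34) in all 6.

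The chaperones of the Hsp70 and Hsp90 families in the ER lumen split. Hspa5 encodes BiP, the Hsp70 that binds unfolded chains and holds the sensors inactive, and it was at 10.09, 10.03 and 9.91 log2 CPM after CpG and 9.76, 9.76 and 9.54 without. Hyou1, a large Hsp70 relative that exchanges nucleotide on BiP, was at 8.54, 8.31 and 8.41 against 7.86, 7.72 and 7.64. Hsp90b1 encodes GRP94, the Hsp90 of the ER that Toll-like receptors and integrins need to fold, and it was at 8.26, 8.24 and 8.31 against 8.96, 8.92 and 8.85. The groups overlapped in none of the 3 genes, and 2 rose while 1 fell. By limma over all genes, Hspa5 rose by 0.33 ± 0.08 (SE, FDR 0.00389), a ratio of 1.26, and Hyou1 rose by 0.68 ± 0.08 (SE, FDR 2.34e-05), a ratio of 1.60. Hsp90b1 fell by 0.64 ± 0.06 (SE, FDR 4.09e-06) and was 1.56-fold lower. Its exons lie for 10.3% of their bases under exons of the opposite strand, and whether reads were counted by strand is not given in the sources used here. Hspa5 and Hsp90b1 both hold the ERSE shown above, Hsp90b1 in 2 copies, and their 95% intervals, 0.15 to 0.51 and -0.77 to -0.51, lie on opposite sides of 0.

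The 7 cofactors of BiP also went both ways, with 2 that rose, 2 that fell and 3 that did not pass. Over all genes tested, 37.6% rose and 36.7% fell. Sdf2l1, which binds J proteins and helps BiP keep clients from aggregating, was at 4.67, 4.63 and 4.59 log2 CPM after CpG and 3.24, 3.30 and 3.29 without. The gene lies on the - strand at chr16:17130138-17132383 (GRCm38), and its groups were far apart. It was the ER gene with the largest increase (log2FC 1.36 ± 0.09 SE, FDR 3.88e-07, a ratio of 2.56), and all 3 differences between samples of the same number were positive. Manf, a secreted cofactor that stabilizes BiP and its clients, rose by 0.50 ± 0.07 (SE, FDR 7.67e-05). Dnajc3, which encodes the J protein P58IPK, was at 5.50, 5.54 and 5.48 against 6.20, 6.24 and 6.11 and fell by 0.67 ± 0.07 (SE, FDR 7.08e-06). Dnajb9, the J protein that returns IRE1 to BiP, fell by 0.42 ± 0.09 (SE, FDR 0.00145). The other 3 were close to 0. Dnajb11, a J protein of nascent chains, was at 6.14, 6.09 and 6.20 against 6.10, 6.08 and 6.15 (log2FC 0.03, FDR 0.673). Dnajc10, a J protein that reduces disulfides for degradation, was at 5.99, 5.99 and 6.04 against 6.01, 5.99 and 6.09 (log2FC -0.02, FDR 0.758). Creld2, an ER protein induced by unfolded protein, was at 4.35, 4.49 and 4.56 against 4.39, 4.42 and 4.52 (log2FC 0.02, FDR 0.826). In each of the 3 the groups overlapped.

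The lectin chaperones, which hold glycoproteins by a glucose on the N-glycan, moved apart. Calr, the soluble one, was at 8.64, 8.85 and 8.66 log2 CPM after CpG and 9.42, 9.40 and 9.20 without, and Canx, the one in the membrane, at 9.51, 9.37 and 9.44 against 9.19, 9.13 and 9.10. The groups overlapped in neither gene. Calr fell by 0.62 ± 0.08 (SE, FDR 6.32e-05), and Canx rose by 0.30 ± 0.06 (SE, FDR 0.00157). With both changes, Calr and Canx were at 7.19 and 7.21 log2 CPM per kb after CpG, against 7.81 and 6.91 without it.

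Among the disulfide isomerases and oxidases, the 2 oxidases that reoxidize protein disulfide isomerase moved in opposite directions. Ero1l, the widely expressed one, was at 7.48, 7.47 and 7.37 log2 CPM after CpG and 6.80, 6.56 and 6.58 without, and it rose by 0.79 ± 0.08 (SE, FDR 6.64e-06). Ero1lb, known from pancreas and other secretory tissue, was at 5.72, 6.31 and 5.91 against 8.08, 8.15 and 8.07 and fell by 2.12 ± 0.12 (SE, FDR 2.15e-07). Ero1lb lies on the + strand at chr13:12565874-12611396 (GRCm38). In both genes the groups were apart, most widely in Ero1lb. Unstimulated B cells held more Ero1lb than Ero1l per kb of exon (5.37 and 4.25 log2 CPM per kb), and CpG-stimulated B cells held more Ero1l (5.04) than Ero1lb (3.25). Of the stretches of 75 bases in Ero1lb exons, 7.74% also occur in other genes, mostly Gm18562. The isomerases changed less. Pdia6 rose by 0.53 ± 0.07 (SE, FDR 3.95e-05) and Pdia4 fell by 0.35 ± 0.07 (SE, FDR 0.00103). P4hb, the founding disulfide isomerase, was at 8.003, 7.99 and 7.97 against 7.89, 7.90 and 7.89, with no overlap, but did not pass (log2FC 0.10, FDR 0.128). Pdia3, the partner of the lectins, was at 7.96, 8.02 and 7.91 against 7.96, 8.04 and 7.90 (log2FC 0.00, FDR 0.982), so a change beyond 0.14 on the log2 scale in either direction lies outside its 95% interval.

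None of the 3 prolyl isomerases, which turn proline bonds, passed, where 74.3% of all genes did. Ppib, cyclophilin B, was at 5.98, 6.18 and 6.02 log2 CPM after CpG and 6.18, 6.26 and 6.27 without (log2FC -0.17, FDR 0.0518). Fkbp2 was at 3.99, 4.11 and 4.01 against 3.84, 3.90 and 3.67 (log2FC 0.23, FDR 0.0563). Fkbp11, known from plasma cells, was at 0.52, 0.27 and 0.07 against -0.16, -0.50 and 0.09, the lowest of the tested ER genes and with a wide interval (log2FC 0.47, FDR 0.173). With the replicate number as a block, Ppib passed as lower (FDR 0.0177, limma) and Fkbp2 as higher (FDR 0.0419, limma). Exons of Ppib lie for 25% of their bases under those of Snx22 on the opposite strand.

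The machinery that brings chains into the ER went both ways. Of the 12 ER genes of the Sec61 translocon, the translocon-associated protein (TRAP) complex and the accessory subunits of signal peptidase, 8 rose, 2 fell and 2 did not pass, where 37.6% of all genes rose, and the median log2FC was 0.34. Of the same machinery but not among the 48, 4 genes fell, the catalytic subunits of signal peptidase Sec11a (-0.35) and Sec11c (-1.14) and the channel partners Tram1 (-0.74) and Tram2 (-0.93), while Sec61a2, a paralog of the pore gene, rose (0.80), and of these all but Sec11c were named after their values were seen. Sec61a1, the pore of the channel, was at 7.77, 7.66 and 7.79 log2 CPM after CpG and 7.49, 7.30 and 7.37 without, and rose by 0.35 ± 0.07 (SE, FDR 0.000977). The small subunits passed by less. Sec61g was at 5.53, 5.99 and 5.53 against 5.16, 5.54 and 5.20, with overlap between the groups, and rose by 0.38 ± 0.14 (SE, FDR 0.0317), and Sec61b rose by 0.20 ± 0.07 (SE, FDR 0.029). Of the 33 called ER genes, these were the only 2 to lose their call under an alternative, apart from the test against a log2FC of 1. Without CpG replicate 2, without unstimulated replicate 1 and without unstimulated replicate 3 both missed the threshold (FDR 0.0657 to 0.109, limma), and without CpG replicate 3 Sec61b did (FDR 0.0778, limma). Of their exonic stretches of 75 bases, 13.7% for Sec61g and 10.1% for Sec61b occur in other genes.

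Sec62 and Sec63, which serve chains that enter after translation and help BiP act at the channel, did not rise past the threshold. Sec62 was at 7.11, 7.33 and 7.17 log2 CPM after CpG and 7.97, 7.99 and 7.98 without, and fell by 0.77 ± 0.07 (SE, FDR 3.01e-06), the only translocon gene that fell. Sec63 was at 6.77, 6.73 and 6.79 against 6.92, 6.91 and 6.82, with every CpG-stimulated sample below the unstimulated ones, and missed the FDR limit (log2FC -0.12, FDR 0.0874).

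In the TRAP complex, which aids the entry of some signal peptides, 3 of 4 subunits rose, where 37.6% of all genes rose. Ssr1 was at 7.94, 7.58 and 7.67 log2 CPM after CpG and 7.31, 7.02 and 7.01 without (log2FC 0.61 ± 0.11 SE, FDR 0.000461), Ssr2 rose by 0.50 ± 0.06 (SE, FDR 5.28e-05), and Ssr4 rose by 0.45 ± 0.08 (SE, FDR 0.000636). Ssr3 was at 7.45, 7.44 and 7.43 against 7.66, 7.78 and 7.74 and fell by 0.28 ± 0.06 (SE, FDR 0.00125). The 95% intervals of Ssr1 (0.37 to 0.86) and Ssr3 (-0.41 to -0.15) did not meet, so subunits of 1 complex differed in direction. Summed, the 4 subunits were at 522 ± 22.1 CPM after CpG and 448 ± 5.80 CPM without (SD, n = 3). Of the accessory subunits of signal peptidase, whose catalytic subunits fell as given above, Spcs1 was at 6.20, 6.34 and 6.19 against 5.30, 5.55 and 5.54 and rose by 0.78 ± 0.09 (SE, FDR 1.73e-05), and Spcs2 rose by 0.32 ± 0.07 (SE, FDR 0.00272). Spcs3, a subunit that the complex needs, was at 7.50, 7.50 and 7.40 against 7.31, 7.36 and 7.39 (log2FC 0.11, FDR 0.115). Exons of Spcs1 lie for 16.3% of their bases under those of Glt8d1 on the opposite strand, and those of Ssr2 for 12.8% under Gm10704.

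Of the 11 genes of ERAD, 6 fell, where 36.7% of all genes fell, 2 rose and 3 did not pass, with a median log2FC of -0.42 against 0.00 for all genes. Their summed level was 878 ± 17.0 CPM after CpG and 1112 ± 21.1 CPM without (SD, n = 3). Syvn1, the ubiquitin ligase HRD1 at the centre of the pathway, was at 5.76, 5.88 and 5.95 log2 CPM after CpG and 7.01, 6.94 and 7.08 without. The groups were far apart, and it fell by 1.14 ± 0.07 (SE, FDR 3.02e-07) and was 2.21-fold lower. Syvn1 lies on the + strand at chr19:6046576-6053712 (GRCm38). Its partner Sel1l, which holds HRD1 in a stable complex, was at 6.67, 6.38 and 6.68 against 6.45, 6.29 and 6.48, with overlap, and did not pass (log2FC 0.17, FDR 0.119). With the replicate number as a block Sel1l passed as higher (FDR 0.0144, limma), and without CpG replicate 2 its log2FC was 0.27 (FDR 0.00601, limma).

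All 3 EDEM genes, whose products trim mannose and mark glycoproteins for degradation, fell, with Edem1 at -0.59, Edem2 at -0.43 and Edem3 at -0.69. Herpud1, which gathers the ligase complex, fell by 0.42 ± 0.07 (SE, FDR 0.000284). The selenoproteins of the complex went opposite ways: Selk fell by 0.93 ± 0.13 (SE, FDR 0.000124), while Vimp was at 5.84, 5.80 and 5.95 log2 CPM after CpG and 4.95, 5.17 and 5.02 without and rose by 0.82 ± 0.08 (SE, FDR 7.83e-06). Of the derlins, membrane proteins through which substrates leave, only Derl2 passed. Derl2 was at 5.85, 5.86 and 5.83 against 5.42, 5.44 and 5.52 and rose by 0.39 ± 0.07 (SE, FDR 0.000341). Derl1 was at 7.37, 7.42 and 7.34 against 7.33, 7.31 and 7.32 (log2FC 0.06, FDR 0.387). Derl3, which is known from plasma cells and holds an ERSE, was at 1.97, 1.81 and 2.07 against 2.37, 1.93 and 1.47 (log2FC 0.03, FDR 0.915), a low level whose interval covers a change of 0.48 down to 0.54 up on the log2 scale.

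The 3 sensors gave 3 different results. Eif2ak3 encodes PERK, the kinase that phosphorylates eIF2α and slows translation, and it was at 6.13, 6.28 and 6.03 log2 CPM after CpG and 8.70, 8.76 and 8.70 without. It fell by 2.58 ± 0.07 (SE, FDR 1.03e-08), the most negative change among the ER genes, and the differences between samples of the same number were -2.58, -2.48 and -2.67. Eif2ak3 lies on the + strand at chr6:70844515-70905245 (GRCm38), with 8.05% of its exonic bases under exons of the opposite strand, against 8.16% for Sec61a1, 8.85% for Manf and 11.7% for Sec62. Atf6, which is cut in the Golgi to release a transcription factor, was at 8.28, 8.01 and 8.22 against 7.41, 7.22 and 7.14 and rose by 0.91 ± 0.09 (SE, FDR 6.99e-06). Ern1, which encodes the IRE1 kinase that splices Xbp1 mRNA, was at 3.82, 3.63 and 3.94 against 3.95, 3.74 and 3.91 with overlap (log2FC -0.07, FDR 0.584, 95% interval -0.32 to 0.18). These are levels of mRNA, and neither sensor activity nor the splicing of Xbp1 can be read from values per gene.

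**Figure D3:**
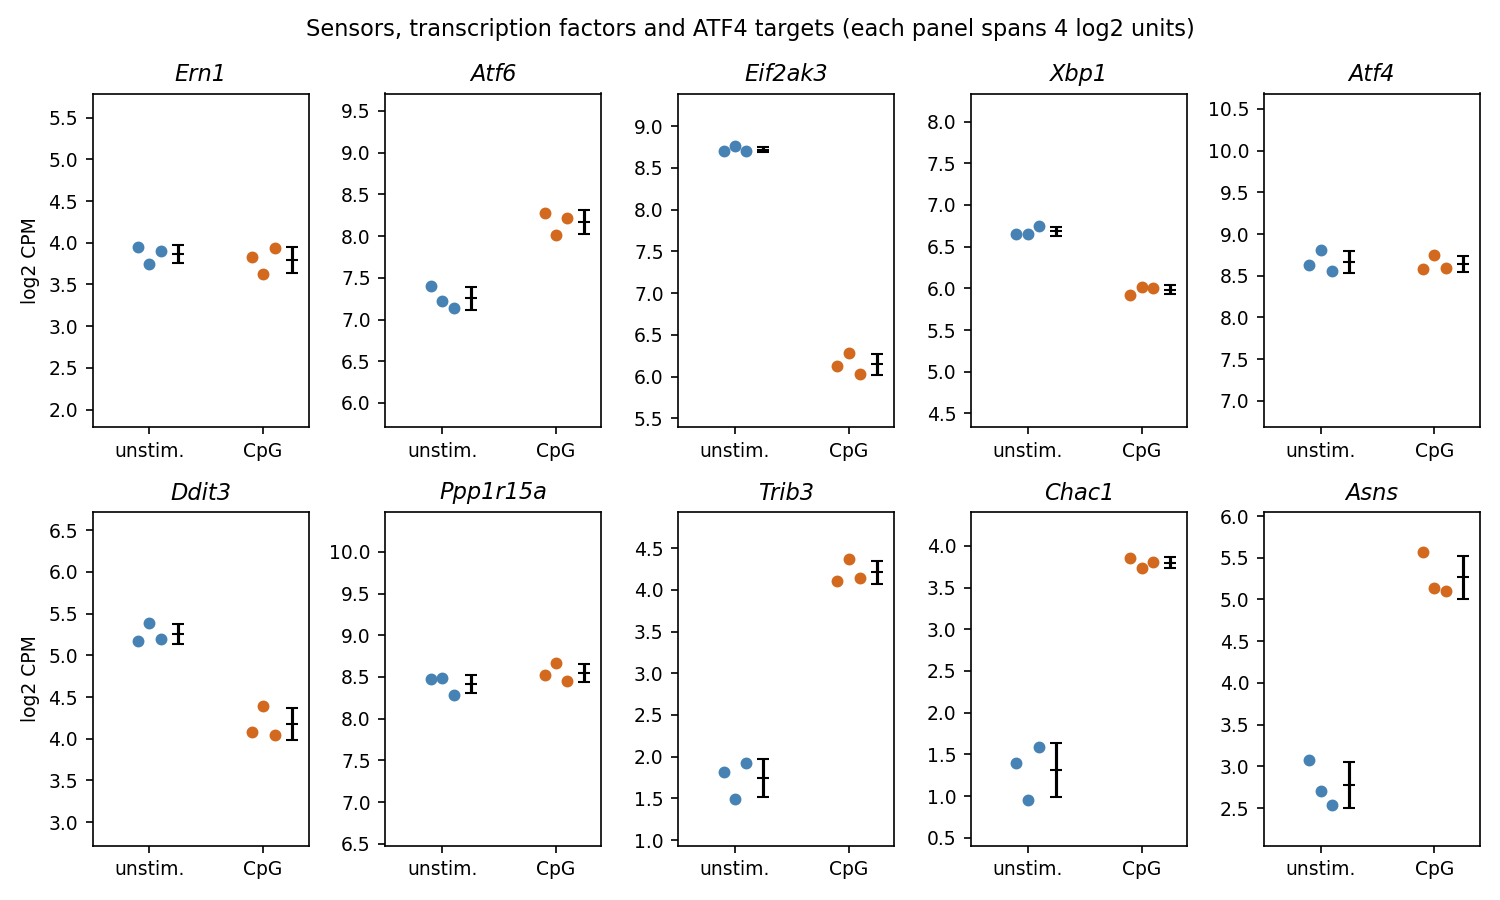
Log2 CPM in each sample of the 3 sensors, of transcription factors below them and of ATF4 target genes, with 3 points per group and the mean ± SD beside them, on axes that each span 4 log2 units. Eif2ak3, Xbp1 and Ddit3 sit lower after CpG, Ern1 and Atf4 overlap between the groups, and Trib3, Chac1 and Asns sit higher.

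Most transcription factors below the sensors that passed the FDR fell. The 10 tested genes are transcription factors of the unfolded protein response (UPR), proteases that cut ATF6 and the CHOP target Bbc3. Of them, 3 rose, 5 fell and 2 did not pass, where 37.6% of all genes rose and 36.7% fell. The 3 that rose were 1 transcription factor gene, Atf6b (log2FC 0.57), the protease gene Mbtps2 (0.67) and Bbc3. The 5 that fell were Xbp1, Ddit3, Creb3 (-1.24), Creb3l2 and the protease gene Mbtps1 (-0.45). Atf6b, Mbtps2, Creb3 and Mbtps1 were named after their values were seen. Xbp1, the factor that IRE1 activates, was at 5.92, 6.02 and 6.01 log2 CPM after CpG and 6.65, 6.65 and 6.75 without, and fell by 0.70 ± 0.06 (SE, FDR 4.27e-06). Ddit3 encodes CHOP, a factor of prolonged ER stress, and was at 4.08, 4.40 and 4.04 against 5.18, 5.39 and 5.20, and fell by 1.08 ± 0.11 (SE, FDR 1.01e-05). Atf4, whose protein is made when eIF2α is phosphorylated, was at 8.57, 8.75 and 8.59 against 8.63, 8.81 and 8.56 (log2FC -0.03, FDR 0.765). At the ends of the list, Creb3l2, a factor of secretory cells that is cut like ATF6, fell by 1.84 and Bbc3, a cell death gene, rose by 0.70.

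Of the 8 tested targets of PERK and ATF4, 4 rose, 1 fell and 3 did not pass, where 37.6% of all genes rose and 36.7% fell. Asns, which makes asparagine, was at 5.56, 5.14 and 5.10 log2 CPM after CpG and 3.07, 2.70 and 2.53 without and rose by 2.50 ± 0.16 (SE, FDR 4.11e-07). Trib3, a pseudokinase that restrains ATF4, was at 4.11, 4.37 and 4.14 against 1.81, 1.49 and 1.93 and rose by 2.46 ± 0.15 (SE, FDR 2.41e-07). Chac1, which degrades glutathione, rose by 2.49 and Sesn2, a stress protein that restrains mTORC1, by 1.68, both named after their values were seen. Ddit4, which also restrains mTORC1, fell by 1.90 ± 0.19 (SE, FDR 7.42e-06). Ppp1r15a, a regulatory subunit of the phosphatase of eIF2α, was at 8.52, 8.67 and 8.45 against 8.47, 8.49 and 8.29 (log2FC 0.13, FDR 0.15). It passed as higher with the replicate number as a block (FDR 0.0344, limma). Of 6 genes of eIF2α, its kinases and its phosphatase, 3 rose, among them Eif2s1 (log2FC 1.24), which encodes eIF2α itself, and 1, the kinase gene Eif2ak1, fell by 0.27.

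The steps on either side of the folding genes are described by further lists, to be read beside all genes, of which 37.6% rose and 36.7% fell. A list of 17 tested genes held the signal recognition particle, its receptor and targeting factors, and also Sec11a, Sec11c, Tram1, Tram2 and Sec61a2 of signal peptidase and the channel. Of these, 9 rose and 7 fell, 4 of the 7 being the Sec11 and Tram genes, from Wrb, an insertase of tail-anchored proteins, at 1.99 to Sec11c, a catalytic subunit of signal peptidase, at -1.14. The oligosaccharyltransferase, which adds the N-glycan, had 7 of 12 genes that rose and 2 that fell. Its accessory subunit Ostc was at 0.91, and Stt3b, 1 of the catalytic subunits, at -1.20. Of 8 genes of glycan trimming 2 rose and 3 fell, with Mogs, the first glucosidase, at 1.41 and Ngly1, which strips glycans in the cytosol, at -1.05.

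Of a further 21 genes of ERAD, 12 fell and 4 rose, where 36.7% of all genes fell and 37.6% rose. Their median log2FC was -0.30. The ends were Erlin1, a membrane protein that helps clear IP3 receptors, at -1.73, and Ube2j2, a ubiquitin-conjugating enzyme, at 0.85. Of 14 further disulfide isomerases and relatives 5 rose and 7 fell, from Vkorc1l1, which uses vitamin K, at 1.21 to Erp29 at -1.52. Of 13 further chaperones and isomerases 5 rose and 2 fell, with the J protein gene Dnajc25 at 1.15 and Sdf2, the relative of Sdf2l1, at -0.78. Sdf2 was at 4.60, 5.04 and 4.63 log2 CPM after CpG and 5.53, 5.60 and 5.48 without, so that the levels of these relatives moved in opposite directions. Genes of the COPII coat and of retrieval to the ER were even, with 5 of 15 up, 5 down and 5 that did not pass. The coat gene Sec13 was at 0.86 and Sec24d, which picks cargo, at -1.50. Over the 10 lists of further ER and UPR genes together, 47 of 124 tested genes rose and 45 fell, with a median log2FC of 0.05.

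Of 8 tested genes of the plasma cell programme, in which the ER grows, 5 fell, where 36.7% of all genes fell, and 2 rose, with a median log2FC of -0.78. Mzb1, a cofactor of GRP94 in B cells and plasma cells, was at 5.23, 5.87 and 5.51 log2 CPM after CpG and 7.69, 7.80 and 7.82 without, and fell by 2.23 ± 0.13 (SE, FDR 2.42e-07). Prdm1, which encodes Blimp-1, the factor that drives the plasma cell fate, was at 4.14, 3.88 and 3.70 against 4.39, 3.99 and 3.71 (log2FC -0.12, FDR 0.548). Irf4, which is raised on B cell activation and in plasma cells, was at 11.29, 11.09 and 11.12 against 10.29, 10.17 and 10.15 and rose by 0.97 ± 0.08 (SE, FDR 1.79e-06). Slamf7, a surface receptor, had the largest increase on the list, by 2.19.

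Chaperones outside the ER give the contrast within protein folding. Of 26 cytosolic and mitochondrial chaperones and cochaperones, 22 rose and 4 fell, and none missed the threshold. Over all genes tested, 37.6% rose and 36.7% fell. The median log2FC of the 26 was 0.85. It was 0.06 for the 47 ER genes, and 0.03 for the 12 chaperones, cofactors and lectins among them. A log2FC over 1 was reached by 9 of the 26 and by 15.8% of all genes. Cct6a, a subunit of the chaperonin TRiC, was at 8.99, 8.89 and 8.89 log2 CPM after CpG and 7.49, 7.43 and 7.32 without (log2FC 1.51 ± 0.07 SE, FDR 4.32e-08). The 4 that fell, each with a log2FC under -1, were Hspa4l, at 2.51, 2.50 and 2.47 against 5.04, 5.00 and 4.84 (-2.47), and 3 named after their values were seen, the heat-inducible Hsp70 genes Hspa1a (-2.18) and Hspa1b (-2.43), which are near-identical, so that reads may be split between them, and Dnajb1 (-1.01). The difference between the 2 sets of chaperones was not tested.

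**Figure D4:**
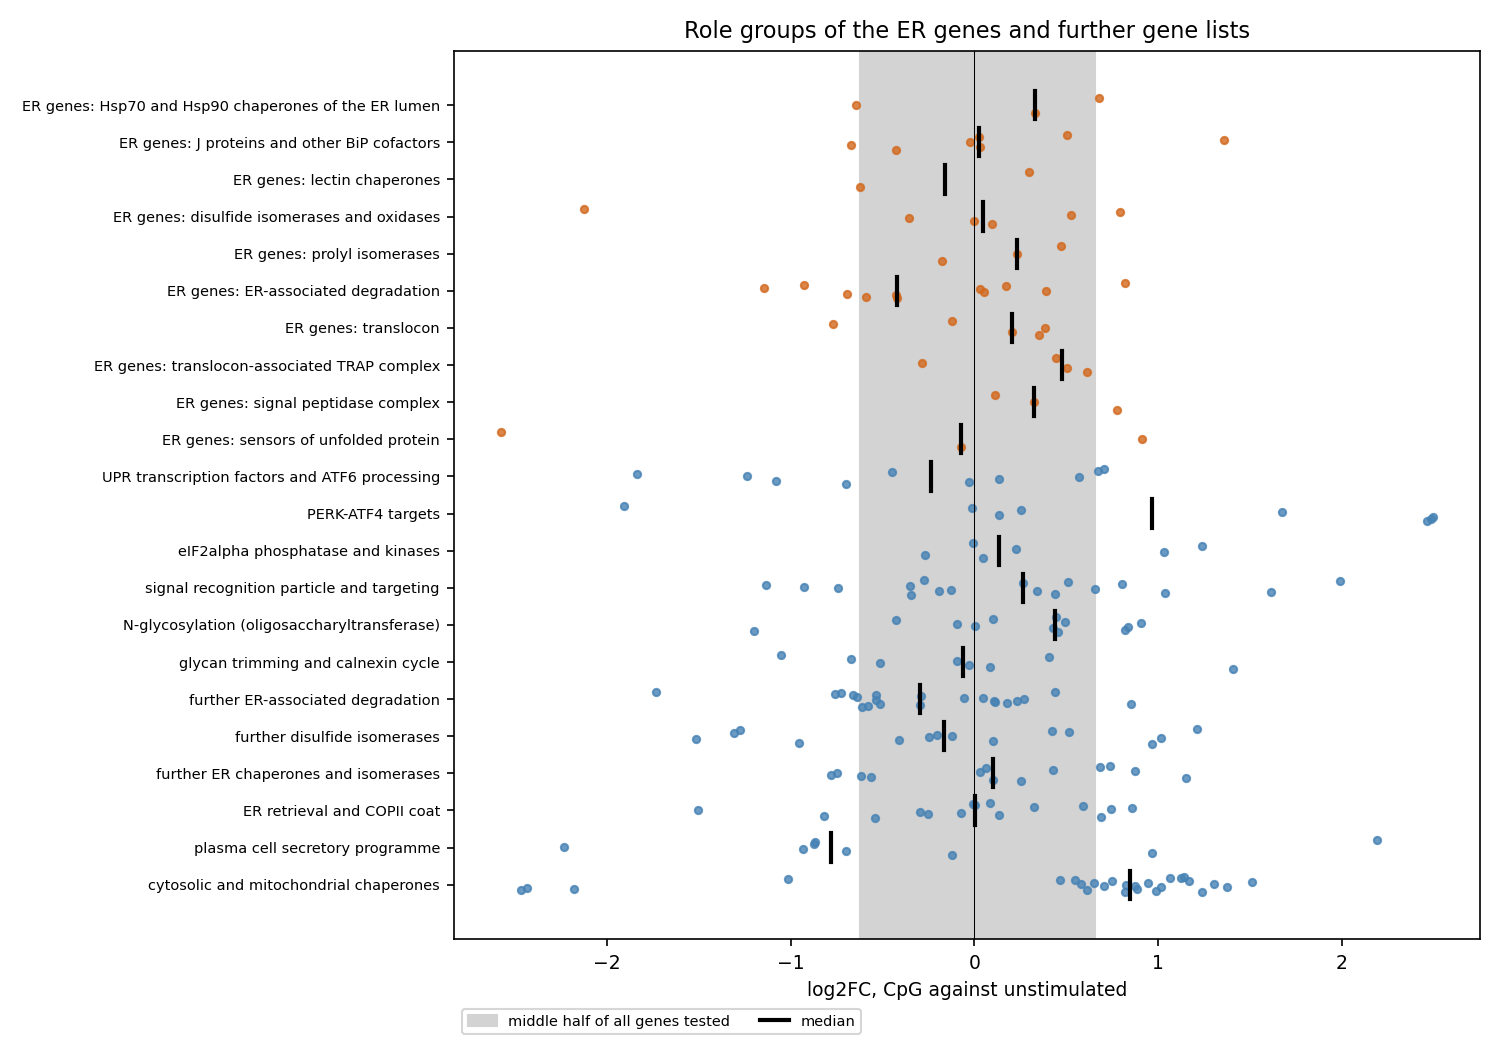
Log2FC, CpG against unstimulated, of each tested gene in the 10 role groups of the ER genes (orange) and in 12 further lists (blue), with the median of each as a black line and the interquartile range of all 11233 genes in grey. Medians of ERAD and of the plasma cell list lie left of 0, and those of translocation groups and of cytosolic and mitochondrial chaperones lie right of it.

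The genes whose promoters hold the ERSE did not move as 1 group. Of the 10, Hspa5, Canx and Pdia6 rose, Hsp90b1, Calr, Dnajc3, Ero1lb and Syvn1 fell, and Creld2 and Derl3 did not pass, with a median log2FC of -0.30. Of 30 tested ER genes with a promoter found and no ERSE, 10 rose, 10 fell and 10 did not pass, with a median of 0.01. Both groups are to be read beside all genes tested, of which 37.6% rose and 36.7% fell. The 7 genes without a promoter were not searched and are in neither group. Of these, Atf6, Hyou1, Manf, Sec61a1 and Ssr2 rose, Derl1 and Spcs3 did not pass, and none fell. Both genes with an ERSE-II, Herpud1 and Dnajb11, were described above, and 1 of them fell. Changes among genes that share the element thus ran from -2.12 to 0.53 on the log2 scale, and whether the element was used in these cells was not measured.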

How the data were processed

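RNA-seq values of 6 samples were used, 3 CpG-stimulated and 3 unstimulated, grouped by their labels. Per the labels, the authors trimmed reads with Trim Galore 0.6.5, checked them with FastQC 0.11.7, aligned them to mm10 with STAR 2.6.1a and counted them per gene with featureCounts (Subread 2.0.1). The deposited values are log2 CPM from limma voom after quantile normalization, and raw counts were not used here. The value of a gene without reads, -5.152, corresponds to 17.8 M reads per library. Yet 8043 values lay below it. Among these, 2548 pairs of samples of the same number were equal, against 245 pairs of different number. How values below that of a gene without reads arose was not tested. Sums of CPM ran from 992384 to 1012396 and do not give the depth per sample, and values of 10 and 3 reads cover counting error only.

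The CpG-stimulated group was set against the unstimulated one in limma 3.58.1 (R 4.3.3), using lmFit and then eBayes with a trend. Benjamini-Hochberg adjustment over all 11233 genes tested gave the FDR. Genes were called at an FDR under 0.05. Given in each sample were, per role group, the genes with the largest and the smallest log2FC, Hspa5, Hsp90b1, Sec61a1, the sensors, the genes that did not pass and those called against most of their group. From the further lists, the genes at both ends and Xbp1, Atf4, Ddit3, Ppp1r15a, Trib3, Prdm1, Irf4 and Mzb1 were named. The genes, lists and tests were chosen with earlier results of these data known. Positions, exon lengths and overlaps were taken from GENCODE M21 (GRCm38), and promoters from RefSeq. In simulated data over 11233 genes, 57 of 100 genes changed by 0.5, 81 of 100 changed by 1.5 and 7 unchanged genes were called. No other genes were changed there, whereas 8350 genes were called in the data. The FDR limit was therefore stricter in the simulation, and these shares are not detection rates for this comparison.

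Deviations from the group means correlated at 0.435, 0.224 and 0.300 between samples of the same number, and at -0.281 to 0.0279 between others. By this measure the numbers pair the samples, but the deposited values also carry a shift by replicate number, which can give the same correlations.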

Additional observations from a re-analysis of the deposited data

How the results depend on the processing

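The 15 alternatives changed the filter on low values, the scale, the variance model, the centring or the pairing, left out a sample, or tested against a log2FC of 1. Apart from the test against a log2FC of 1, between 16 and 20 of the ER genes rose and 15 or 16 fell. With a log2FC over 1 there was 1 gene in every setting, and under -1 there were 2 to 4. The median log2FC ran from 0.0487 to 0.0938 when 1 sample was left out. In those settings 35.0% to 38.1% of all genes rose and 34.2% to 36.9% fell. With the replicate number as a block, 20 rose and 16 fell: Sel1l (FDR 0.0144), Ppib (0.0177), Fkbp2 (0.0419) and Ppp1r15a (0.0344) passed as well by limma, and no other call of a named gene changed. Outside the block, Ppib also passed with robust variance (FDR 0.0489), centring (0.0460) and without CpG replicate 2 (0.00872), and Fkbp2 without a variance trend (0.0459). Sec61g missed the threshold without the filter (0.0683) and without the trend (0.0864), all by limma.

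Leaving out 1 sample turned the sign of genes that did not pass in either case. The log2FC then ran from -0.14 to 0.0127 for Ern1 (above 0 without CpG replicate 2), from -0.0338 to 0.0357 for Pdia3 (above 0 without CpG replicate 3 or unstimulated replicate 2) and from -0.0428 to 0.00817 for Dnajc10 (above 0 without unstimulated replicate 3). It ran from -0.0235 to 0.083 for Creld2 (below 0 without CpG replicate 3 or unstimulated replicate 1) and from -0.20 to 0.25 for Derl3 (below 0 without replicate 3 of either group). For Atf4 it ran from -0.0842 to 0.0447 (above 0 without CpG replicate 1 or unstimulated replicate 2), and for Prdm1 from -0.28 to 0.0602 (above 0 without unstimulated replicate 1). The cause was not tested. Without the filter, 23.8% of all genes rose and 23.4% fell, as more genes of low value were tested, and 8.14% and 8.62% passed the test against a log2FC of 1. Fkbp11 and Derl3, at low levels, had the widest intervals, and depth limits what can be said of them. The ERSE was in the same 10 promoters when the 50 bases after the start were left out.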
